A study of Mus musculus with 3 samples.

Results

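Cycling stromal cells, the cells of the mouse hind paw that carry RNA of cell division genes and none of the leukocyte gene Ptprc, were described before and during serum transfer arthritis. A cell was counted when at least 4 of the 8 genes Mki67, Top2a, Cenpf, Ube2c, Birc5, Ccnb2, Cdca3 and Pclaf had at least 1 unique molecular identifier (UMI, one tagged RNA molecule) and Ptprc had 0. Cells needed 500 or more detected genes, 1000 or more UMIs and a mitochondrial share of UMIs of 10% or less. This rule found 114 of the 24485 cells that passed these filters in the 3 libraries of the series, 10 at day 0 and 104 at day 5. The study profiled cells of the paw in arthritis caused by K/BxN serum, with a droplet-based 3' kit (10x v3.1). The day 0 library holds CD45-negative sorted cells of paws labelled as steady state, and the day 5 library holds CD45-negative sorted cells taken 5 days after serum of arthritic K/BxN mice was injected into the peritoneum. The third library, CD45+CD11b+Ly6G- cells of day 9, enters only the total. All paws lost skin, muscles and tendons and were digested with collagenase IV and deoxyribonuclease before the sort. The labels used here give neither strain, sex, age nor number of mice, and each group is 1 library, so no test between days was possible, and an effect of the day and one of the library cannot be told apart. The intervals below are exact 95% intervals and cover counting error only, and a count of 0 is given with the share or level that 3 counts would make.

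Serum of arthritic K/BxN mice contains autoantibodies that cause joint inflammation in a recipient. The CD45-negative compartment of the joint holds fibroblasts of the synovial lining and sublining, tendon and ligament fibroblasts, osteoblasts, chondrocytes, endothelial cells and the mural cells around vessels. A dividing cell first copies its DNA in S phase and then builds the spindle, condenses its chromosomes and divides. The genes of the second step are switched on together late in the cycle, partly through CCAAT boxes and through the cell cycle homology element, written TTTGAA in many of these promoters, near their start sites.

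The promoters of a set of genes picked for high ratios between cycling and other cells held these motifs at larger shares than all measured genes. This is a description of a set to which rule genes belong. The set joins the 12 genes with the highest ratios at day 5 and the 12 highest outside the division lists, with Kif20a in both. Both were taken among genes with at least 50 CPM in the higher group. Genes of the division lists below the first 12 are not in it, so it is not a plain ranking. Of its 23 genes, 18 were matched to a RefSeq promoter (GRCm38.p6, 250 bases before the start and 50 after). TTTGAA, read on both strands, was found in 9 of 18 (50%), against 11.3% of the 6717 matched genes measured at day 5 and 17.9% of all 32851 promoters of the table. CCAAT, on both strands and so also as ATTGG, was found in 15 of 18 (83.3%), against 38.2% and 37.4%, and 13 of 18 (72.2%) held it at least 2 times, against 14.9% and 11.7%. Without the rule genes among them, 4 of 11 promoters held TTTGAA and 9 of 11 CCAAT. Of the 12 genes with the lowest ratios, 11 were matched, of which 3 held TTTGAA and 1 held CCAAT. Both motifs are short, and a match is a description of the sequence only. The lines below show 160 bases of 4 of the promoters with both motifs, from 130 bases before the start, 5' to 3' on the gene's own strand, which is the minus strand of the chromosome for all 4, with the motifs in capitals. They are shown because Hmmr had the highest ratio of day 5, Ccnb2 and Cenpf are genes of the rule, and Cdca8 was among the highest outside the division lists.
Ccnb2, chr9:70421525-70421684: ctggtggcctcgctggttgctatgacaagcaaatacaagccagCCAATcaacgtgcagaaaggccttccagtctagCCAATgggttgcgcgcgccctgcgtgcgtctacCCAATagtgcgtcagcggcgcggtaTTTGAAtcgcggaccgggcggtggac
Hmmr, chr11:40733408-40733567: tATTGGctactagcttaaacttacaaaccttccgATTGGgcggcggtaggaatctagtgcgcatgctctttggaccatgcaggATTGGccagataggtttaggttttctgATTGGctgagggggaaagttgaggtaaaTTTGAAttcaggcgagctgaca
Cdca8, chr4:124936888-124937047: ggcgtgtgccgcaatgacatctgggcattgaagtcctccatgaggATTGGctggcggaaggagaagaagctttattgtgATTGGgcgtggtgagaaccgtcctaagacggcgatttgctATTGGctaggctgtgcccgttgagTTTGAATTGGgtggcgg
Cenpf, chr1:189688057-189688216: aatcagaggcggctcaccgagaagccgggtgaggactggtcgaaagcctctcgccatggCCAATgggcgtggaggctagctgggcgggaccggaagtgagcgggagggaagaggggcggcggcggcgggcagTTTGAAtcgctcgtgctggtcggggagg
In Ccnb2, the mitotic cyclin B2, the 3 CCAAT boxes began 87, 54 and 21 bases before the start, 33 bases from one to the next, and TTTGAA began at base 5 of the transcript. In Cdca8, a subunit of the chromosomal passenger complex, TTTGAA and the last ATTGG share bases. In Hmmr, which codes for a spindle-binding receptor of hyaluronan, and Cenpf, a kinetochore protein, TTTGAA began at bases 9 and 3.

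The rule genes were high in the cycling cells by construction, and their levels are given as a description. Ccnb2 and Cdca3 had a UMI in 98 of the 104 cells of day 5 each, Birc5 in 91, Mki67 in 86, Pclaf in 85, Cenpf in 84, Ube2c in 58 and Top2a in 38 (36.5%). Mki67, the proliferation antigen, stood at 199 CPM (its UMIs per 1000000 UMIs summed over the cells) in cycling cells and at 0.494 CPM in the other cells of day 5. At day 0 it stood at 495 and 0.286 CPM and had a UMI in 9 of 10 cells. The 8 genes were spread over the cells: at day 5, 18 cells held 4 of them, 16 held 5, 25 held 6, 24 held 7 and 21 held all 8. A further cell of day 5 held all 8 genes with Ptprc UMIs and is no member. Just inside the threshold, the 18 cells with 4 genes had a median of 29382 UMIs, 9 UMIs of the S phase list and 5 of the G2 and mitosis list. Just outside it, the 18 cells with 3 genes had 20524 UMIs, 6.5 and 3.

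The cycling cells covered the phases of the cycle unevenly. At day 5, 70 of the 104 cells held more UMIs of the G2 and mitosis list than of the S phase list, 32 held more of the S phase list and 2 held as many of both. The S phase UMIs per cell ran from 1 over a median of 14.5 to 169, and the G2 and mitosis UMIs from 0 over 30 to 264. At day 0 the split was 6 to 4. Since most of the rule genes are highest in G2 or mitosis, cells in early S phase are reached less well by the rule, and these counts give no share of phases in the tissue.

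Division genes outside the rule were high too, which is a description, since the cells were chosen by genes of the same phases. At day 5, all 23 measured genes of the G2 and mitosis list and 15 of the 18 of the S phase list were at least 1.5-fold higher in cycling cells, with medians of 6.43 and 2.23 on the log2 scale. Over the 8398 genes measured, which needed a mean of at least 10 CPM and 20 UMIs, 24.3% were at least 1.5-fold higher and 14.9% at least 1.5-fold lower, and the median was 0.15. Several genes of the G2 and mitosis list, such as Hmmr at 0.239 CPM in the other cells, met this minimum only through the cycling cells. Such genes could only be counted as higher. The same holds for some genes of other lists below, such as Csf3, Lif, Tnfsf11, C1qtnf3, Slc16a3 and Cdk6. Scaled by TMM, which moves every log2 ratio by -0.17, 1407 genes were higher and 1730 lower in place of 2043 and 1252, so counts over all genes depend on the scaling (with DESeq2 size factors 1486 and 1651). Hmmr (ENSMUSG00000020330) stood at 125 CPM against 0.239 CPM, a ratio of 525 (interval 358 to 799), Ccnb1 (cyclin B1) at a ratio of 435 (257 to 792) and Ccna2 (cyclin A2) at 393 (263 to 612). Among S phase genes the highest were Uhrf1, which keeps DNA methylation through replication, at 31.0 (23.1 to 41.4), and Rrm2, the small subunit of ribonucleotide reductase, at 19.5 (16.6 to 22.8). Outside these lists the 12 highest were 11 further genes of division or chromatin, with ratios from 105 (78.7 to 142) for the mitotic kinesin Kif20a over 94.5 for Cdkn3, 83.9 for Cdca8, 82.0 for Ckap2l, 75 for Diaph3, 68.2 for Spc24, 54.8 for Cenpm, 52.8 for Tk1, 38.8 for Knstrn and 32.7 for the histone gene Hist1h2ap to 32.4 for Stmn1, which destabilises microtubules, and 1 endothelial gene, Selp, at 94.1 (74.7 to 119).

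The cycling cells were deep. Their median was 31538.5 UMIs at day 5 (3623 to 73607) and 18621.5 at day 0 (13344 to 40496), against 9257 and 9797 in the other cells. Their median mitochondrial share was 3.56% and 3.75%, against 3.35% and 3.38%. The 2 stromal libraries held 77842586 UMIs in 7740 barcodes at day 0 and 122224428 UMIs in 11900 barcodes at day 5. A deep cell reaches 4 rule genes more readily. When every cell was thinned to 5000 UMIs, with 576 and 1182 shallower cells left out, 6 of 6792 cells of day 0 (0.0883%) and 49 of 9990 of day 5 (0.490%) met the rule, and 48 of the 49 were among the 104. Doublets were not removed: the doublet caller Scrublet marked 0 and 1 cells and had not worked. Among the barcodes with the highest doublet scores were 7 of the 104 cycling cells (6.73%) and 9.99% of the other cells of day 5. A UMI of at least 1 of 6 leukocyte genes (Tyrobp, Cd52, Coro1a, Laptm5, S100a8, S100a9) was present in 12 of the 104 (11.5%) and in 1.55% of the other cells of day 5. Of the pan-leukocyte list, Cd52, Laptm5, Cd53 and Rac2 were at 0 in the cycling cells of both days, with Ptprc at 0 by the rule, and only Coro1a was found, with 6 UMIs at day 5 (1.76 CPM, against 2.09 CPM for the list in other cells) and 1 at day 0. Between the 2 stromal libraries 25 cell barcodes were shared, none of them a cycling cell, and 1 cycling barcode of day 5 was also present in the day 9 library.

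Cycling cells made up 0.931% of the cells of day 5 (104 of 11172, interval 0.761 to 1.13) and 0.136% of those of day 0 (10 of 7368, 0.0651 to 0.249), a ratio of 6.86 (3.58 to 14.7). The cells were placed by clustering both stromal libraries with the division genes left out, so that identity genes set the place. This gave 20 clusters. The name fibroblast-like is a default for clusters with fewer than 2 leading genes from any cell type list, since fibroblast markers were detected in all clusters. At day 5, 65 of the 104 cells (62.5%, 52.5 to 71.8) lay in 1 fibroblast-like cluster led by Saa3, Ptx3, Ccl2, Chl1, Lcn2 and Ccl7, which held 14.5% of all cells of that day. In this Saa3-led cluster 65 of 1623 cells were cycling (4.00%, 3.1 to 5.08), and in all other clusters 39 of 9549 (0.408%, 0.291 to 0.558), a ratio of 9.81 (6.49 to 15.0). The other cells of the cluster were also deeper than most, with a median of 13905.5 UMIs. After thinning, the shares were 2.03% and 0.213%, so the difference was also present at equal depth. At day 0 the cluster held 31 cells, none cycling, which allows a share of up to 9.68%.

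The other cycling cells of day 5 lay in vascular, bone and lining clusters. The blood endothelial-like cluster held 13 cycling cells among 95 (13.7%, 7.49 to 22.3) and none among 120 at day 0, which allows up to 2.5%. The mural-like cluster held 2 of 21 (9.52%, 1.17 to 30.4). The osteoblast-like cluster held 11 of 695 (1.58%, 0.793 to 2.81) at day 5 and 3 of 587 (0.511%, 0.106 to 1.49) at day 0, a ratio of 3.1 whose interval runs from 0.818 to 17.3. The lining fibroblast-like cluster held 4 of 200 (2.00%, 0.548 to 5.04) and 5 of 166 (3.01%, 0.985 to 6.89), and these do not differ beyond counting error. This rests on where the 4 cells are placed: at the finer setting described below the lining-like cluster held 5 of 166 at day 0 and 0 of 183 at day 5, and after thinning the main one held 3 of 165 and 0 of 190. An unnamed cluster led by Cxcl13, whose other cells were shallow (median 2640 UMIs), held 4 of 246, a fibroblast-like cluster led by H19 held 2 of 686, and 3 further clusters held 1 each. No cycling cell of day 5 was found in the largest clusters with other leading genes: 0 of 1566 in the Lpl-led fibroblast-like cluster, 0 of 1145 in the tenocyte-like cluster led by Coch and 0 of 1080 in the Penk-led fibroblast-like cluster, which allow up to 0.192%, 0.262% and 0.278%. With the cluster shares of day 0 and the cycling share of each cluster of day 5, the library would have held 0.490% cycling cells in place of 0.931%.

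**Figure D1:**
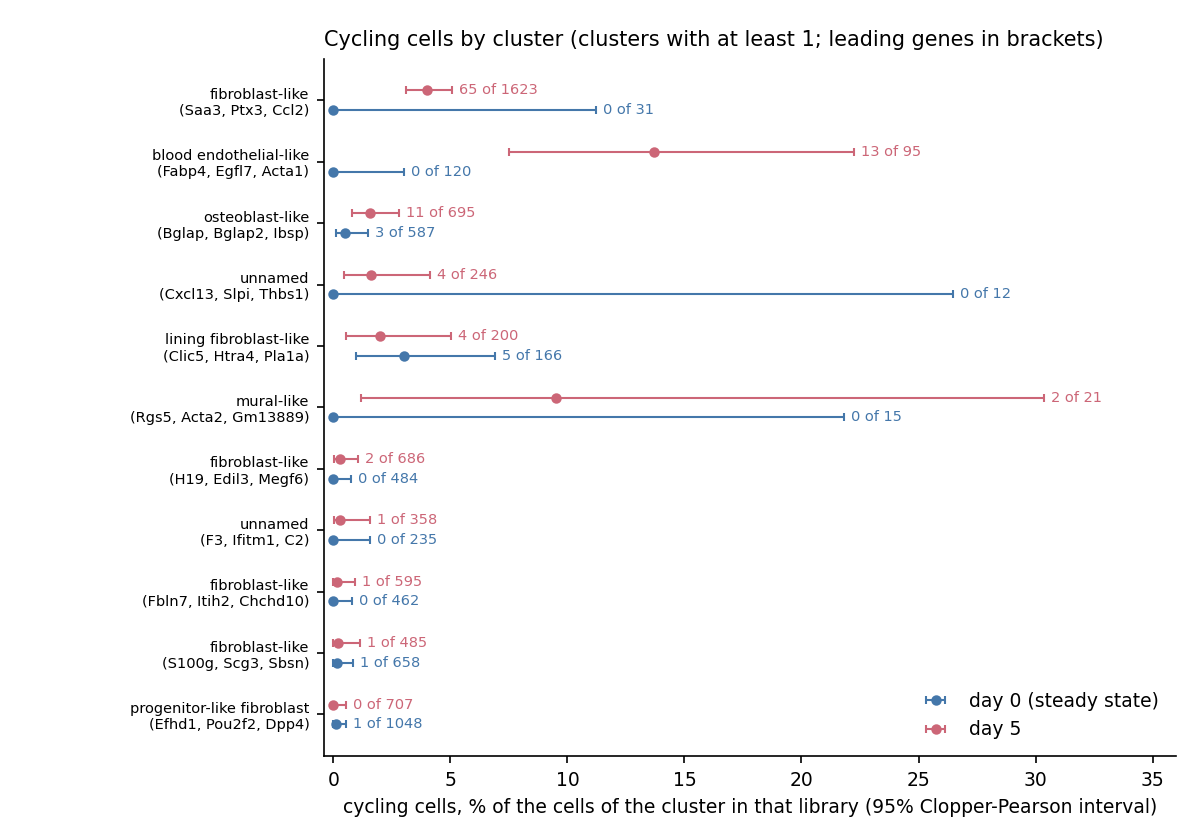
Percent of cycling cells (x axis) in each cluster that held at least 1 (rows, leading genes in brackets), with points for the 2 libraries and bars for 95% Clopper-Pearson intervals. The endothelial-like cluster (13.7%) and the Saa3-led cluster (4.00%) of day 5 stand to the right, while the lining-like cluster has 3.01% at day 0 and 2.00% at day 5 (5 and 4 cells), with intervals that overlap.

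Cell type markers, which also shaped the clusters, were then counted in each cell. At least 3 of the 7 fibroblast markers had a UMI in all 10 cells of day 0 and in 102 of 104 of day 5. All 65 cells of the Saa3-led cluster met this, 32 of them also had at least 3 of 5 markers of progenitor-like fibroblasts and 22 at least 3 of 7 tenocyte markers, and none had 3 markers of lining fibroblasts, osteoblasts or blood endothelium. At least 3 osteoblast markers were present in 12 cells, of which 11 lay in the osteoblast-like cluster, and 12 of the 13 cells of the endothelial-like cluster, and no other cell, had at least 3 of 6 endothelial markers. Erythroid and leukocyte lists reached 3 markers in no cycling cell. The 46 cells with progenitor-like markers and the 29 with tenocyte markers overlap with the fibroblast cells above, and both lists were lower in cycling than in other cells: 723 against 1255 CPM for the progenitor-like list and 705 against 1030 CPM for the tenocyte list. Coch, a matrix protein of the tenocyte list, had the lowest ratio of the genes named for all cells of day 5, at 2 UMIs (0.585 CPM) against 72.4 CPM, a ratio of 0.00809 (0.000979 to 0.0292), and of 0.056 with comparison cells weighted to the same clusters.

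**Figure D2:**
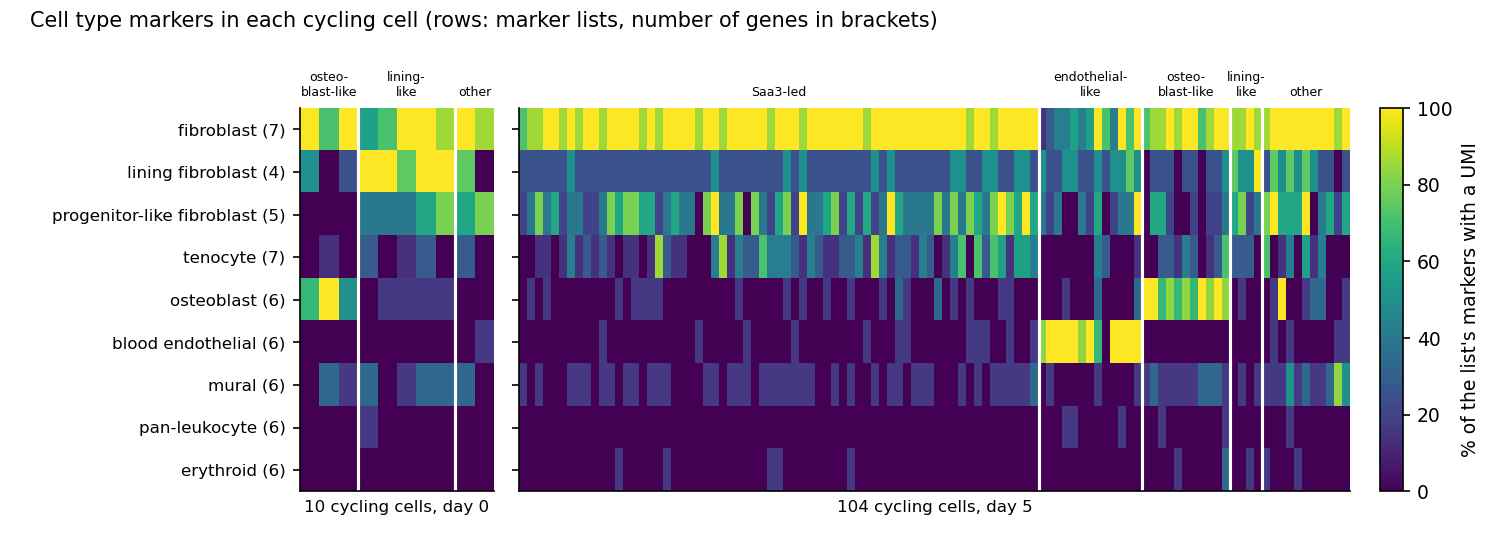
Each column is 1 cycling cell (10 of day 0, 104 of day 5), grouped by cluster between white lines, each row a cell type list with its number of genes in brackets, and the colour is the percent of that list's markers with at least 1 UMI. Endothelial markers fill 12 of the 13 cells of the endothelial-like cluster, osteoblast markers fill the osteoblast-like cells, and pan-leukocyte and erythroid rows are dark.

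UMIs of a gene can also come from free RNA or from doublets, neither of which was removed, and Prg4, the lubricin gene of lining fibroblasts, was read in cells that should lack it. Prg4 had a UMI in 94.2% of the cycling cells of day 5 and in 71.4% of the other cells, but also in 36.6% of the other endothelial-like cells (median 6264 UMIs). The source of these UMIs was not tested. The lining list summed to 3887 CPM in cycling and 3617 CPM in other cells of day 5, and a Prg4 UMI alone marks no lining cell. Matrix RNA of endothelial-like cells has the same limit: Dcn, the proteoglycan decorin, had a UMI in 12 of the 13 cycling cells of the endothelial-like cluster with a median cell at 117 CPM, and in 85.4% of its other cells at 437 CPM. After thinning these shares were 46.2% and 83.6%.

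At a finer setting of the clustering (36 clusters), most cycling cells of the Saa3-led cluster lay in 1 finer cluster. It was picked as the one with the most cycling cells of day 5, so its high share is partly set by this choice. This finer cluster had no name by the markers used and was led by Slpi, Timp1, Fabp5, Slc16a3, Inhba and Mmp3 besides haemoglobin genes. It held 51 of the 104 cycling cells (49.0%), 47 of them from the Saa3-led cluster, among 339 cells of day 5, a share of 15.0% (11.4 to 19.3). The finer cluster led by Saa3 itself, with Ptx3, Ccl2 and Lcn2, held 12 of 1164 (1.03%, 0.534 to 1.79). The ratio between these 2 finer clusters was 14.6 (7.68 to 30.1), and its interval does not cover the choice of the first among 36. The haemoglobin RNA was not in the cycling cells: Hbb-bs stood at 2.98 CPM in the 51 and at 1089 CPM in the other cells of the same finer cluster. A finer tenocyte-like cluster led by Cxcl13 and Thbs4 held 7 of 272 (2.57%). Its other cells, from which its name was read, were shallow at day 5, with a median of 2837 UMIs against 42821 in its cycling cells. A Dmkn- and Pi16-led fibroblast-like cluster held 4 of 152 (2.63%). Comparison cells of 2 kinds were therefore used for gene levels here, since they differ in what they express. They were the other 1558 cells of the Saa3-led cluster and the 288 other cells of the finer cluster with most cycling cells.

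The inflammatory RNA of the cycling cells of day 5 differed by gene group. Of 105 genes on 7 lists (acute-phase, chemokine, cytokine, NF-kB target, interferon response, complement, matrix-degrading enzymes with their inhibitors), 79 were measured, of which 22 were at least 1.5-fold higher and 29 at least 1.5-fold lower than in the other cells, beside the 24.3% and 14.9% of all genes. The 22 higher genes are near the share of all genes, and they were 13 with comparison cells weighted to the clusters of the cycling cells and 11 with comparison cells of like UMI totals. Chemokines that recruit neutrophils and monocytes, and factors for myeloid cells, were among the higher ones over all cells. Most of these myeloid factors were measured only through the cycling cells. Acute-phase, complement and homeostatic chemokine genes were among the lower ones. Saa3, Lcn2, C3, Ptx3, Ccl2, Ccl7, Cxcl1, Cxcl14, Il6, Tnfsf11, Hp, Sod2, Cthrc1, Pdpn, Thy1, Hif1a, Fos, Mmp3, Mmp13 and Mmp14 are named below after their values were seen, as are the further genes of the endothelial-like, osteoblast-like, lining-like and finer clusters and of day 0.

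Of the chemokine list, 11 genes were measured at day 5, with 3 higher, 5 lower and a median of -0.58. Cxcl5, a neutrophil attractant, was at 369 against 69.1 CPM, 5.34-fold (5.03 to 5.66). Ccl2, a monocyte attractant, was at 726 against 202 CPM, 3.59-fold (3.44 to 3.74), and its neighbour Ccl7 at 647 against 351 CPM, 1.84-fold. Cxcl1 was at 554 and 561 CPM. Weighted to the clusters of the cycling cells, the ratios were 2.13 for Cxcl5, 1.40 for Ccl2 and 0.653 for Cxcl1. Cxcl12, which stromal cells release at rest, was at 850 against 2570 CPM (0.331, 0.319 to 0.343), and the eosinophil attractant Ccl11 at 49.1 against 194 CPM (0.253, 0.216 to 0.295). Per cell, Ccl2 ran from 0 over a median of 68.8 to 9560 CPM and Cxcl5 from 0 over 0 to 5934 CPM, so a part of the cells held most of either. Of the Ccl2 UMIs of all cycling cells, 90.6% lay in the Saa3-led cluster.

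Of the cytokine list 4 of 7 measured genes were higher and 2 lower. Of the higher ones, Csf3, Lif and Tnfsf11 met the minimum for a measured gene only through the cycling cells and could only be counted as higher. Csf3, the granulocyte growth factor, was at 34.5 against 1.30 CPM, but 98 of its 118 UMIs lay in 3 endothelial-like cells, 86 of them in 1 cell, and the other 20 in 3 cells. Lif was 3.80-fold higher (2.99 to 4.78), at 24.0 CPM, and Tnfsf11, which codes for the osteoclast factor RANKL, 3.68-fold (2.90 to 4.61), at 24.6 against 6.68 CPM. Tnfrsf11b, the decoy receptor of RANKL, was at 11.4 against 23.3 CPM (0.491, 0.348 to 0.673). Il6 was at 87.5 against 52.9 CPM. The sizes, and for Il6 and Ccl7 the directions, depend on the comparison cells: weighted to the same clusters as the cycling cells, the ratios were 1.75 for Lif, 1.43 for Tnfsf11, 0.818 for Il6 and 0.784 for Ccl7.

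Of the acute-phase list 2 of 9 genes were higher and 6 lower, with a median of -0.92. Slpi, a protease inhibitor, was the highest at 131 against 22.8 CPM (5.75, 5.20 to 6.36), and at 1.87 with weighted comparison cells. The serum amyloid genes Saa1 and Saa2 stood at 0.125 (0.0861 to 0.176) and 0.24 (0.139 to 0.385) of the other cells, and Saa3 at 298 against 546 CPM. Of the complement list 9 of 12 genes were lower and 3 higher: C4b at 0.203 (0.179 to 0.228), the C1 inhibitor Serping1 at 773 against 2982 CPM (0.259) and C3 at 541 against 2014 CPM (0.269, 0.256 to 0.281), while C1qtnf3, a secreted protein of the C1q and TNF family, was at 60.3 against 6.73 CPM (8.95, 7.64 to 10.4).

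The NF-kB target and interferon lists had medians near 0 (-0.07 and 0.07). On the first, 1 of 14 genes was higher, Bcl3 at 1.52-fold (1.25 to 1.82; 0.853 with weighted comparison cells), and 2 were lower, Icam1, an adhesion molecule for leukocytes, at 80.7 against 183 CPM (0.442, 0.391 to 0.497), and the inhibitor Tnfaip3 at 0.658. On the second, 4 of 14 were higher, with Isg15 at 2.22-fold (1.86 to 2.64) and Bst2 at 2.04-fold (1.84 to 2.25), and 3 lower, with the transcription factor Irf1 at 28.1 against 99.5 CPM (0.282, 0.229 to 0.345). With weighted comparison cells Isg15 was at 1.34, Bst2 at 1.33 and Irf1 at 0.431. Of the matrix-degrading enzymes and inhibitors 5 of 13 were higher and 3 lower. Timp1, a metalloproteinase inhibitor, was at 3283 against 542 CPM (6.06, 5.94 to 6.18), Mmp14 at 442 against 170 CPM, Timp3 at 96.2 against 418 CPM (0.230, 0.206 to 0.257) and Mmp11 at 0.467. The weighted ratios of Timp1, Mmp14, Timp3 and Mmp11 were 2.48, 2.15, 0.289 and 0.547.

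Within the Saa3-led cluster, whose leading genes are inflammatory, cycling cells held less of most of these RNAs. The cluster was picked by Saa3, and its leading genes were read, in its other cells only. Lower levels of those genes in the cycling cells are thus partly set by this choice. Of 81 measured inflammatory genes 12 were at least 1.5-fold higher and 44 at least 1.5-fold lower than in the other 1558 cells, beside 16.7% and 9.05% of the 8056 genes measured there, whose median was 0.17. The acute-phase list had 7 of 9 lower (median -2.26), the complement list 8 of 12 (-1.73), the chemokine list 8 of 13 (-1.26) and the NF-kB target list 11 of 15 (-0.92), with none of the last higher. Saa1 was at 12 against 300.2 CPM (0.0399, 0.0260 to 0.0585) and Saa2 at 0.0873. Saa3 itself was at 347 against 2336 CPM (0.149, 0.138 to 0.16), although a Saa3 UMI was present in 33.8% of the cycling and 33.6% of the other cells, and in 21.9% and 27.7% after thinning. The median cell of both groups held none, and the highest single cell held 11021 CPM of Saa3 among the cycling cells and 119058 CPM among the others.

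C3 and Cxcl12 were lower across the cells rather than through a few. The median cycling cell of the cluster held 294 CPM of C3 and the median other cell 2699 CPM, and for Cxcl12 the medians were 418 and 2508 CPM. Serping1 stood at 805 against 3084 CPM over the summed cells. Lcn2, an iron-binding acute-phase protein, was at 233 against 1115 CPM and Icam1 at 60.3 against 198 CPM. Of the recruiting chemokines, Ccl2 was at 1035 against 804 CPM, with a UMI in 76.9% against 48.7% of cells (60.9% and 40.1% after thinning). The ratio of Ccl2 levels, 1.29, was 0.983 without the cells that hold leukocyte UMIs and 0.894 against cells of like UMI totals, so its direction is not settled. Cxcl5 was higher, at 492 against 269 CPM, with a UMI in 58.5% against 28.2% (51.6% and 20.1%), but its ratio of 1.83 was 1.05 against cells of like UMI totals. In the other endothelial-like cells of day 5 (median 6264 UMIs), given for comparison, Cxcl5 had a UMI in 2.44%, Cthrc1 in 6.10%, Tnc in 2.44% and Slc16a3 in 7.32%. In the 13 cycling ones (median 34071 UMIs) they had one in 1, 3, 2 and 3 cells. Ccl7 (951 and 1280 CPM), Cxcl1 (687 and 1213 CPM), Ptx3 (495 and 945 CPM) and Il6 (91.2 and 157 CPM) were lower.

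Against the other cells of the finer cluster the gap was smaller. The other 288 cells held more RNA of several other cell type lists. Ibsp of osteoblasts was at 27.4 CPM in the cycling and 777 CPM in the other cells, Alpl at 1.19 and 64.3 CPM and Clu at 80.3 and 1350 CPM. All 5 measured tenocyte genes and both measured genes of the osteoblast and lining lists were lower in the cycling cells, and the part of this mix in the comparison was not tested. Of 74 measured inflammatory genes 12 were higher and 22 lower, beside 11.8% and 11.1% of 8011 genes, whose median was 0.08. The medians were -0.56 for the acute-phase list, -0.41 for the complement list and 0.16 for the chemokine list. Cxcl12 was at 564 against 503 CPM, C3 at 306 against 480 CPM and Timp1 at 5330 against 5162 CPM. Ccl2 was higher in this comparison, at 1197 against 358 CPM (3.35, 3.13 to 3.58), and Cxcl5 at 637 against 280 CPM (2.28, 2.10 to 2.48). The cycling cells were deeper here too, with medians of 32404 and 12441.5 UMIs, and ratios at like UMI totals are not given for the finer cluster. Ptx3 (1.92) and Il6 (1.89) were higher here and lower in the comparison with the whole Saa3-led cluster, so their direction depends on the comparison cells. Saa1, at 3 UMIs against 234 CPM (0.00762, 0.00157 to 0.0223), Saa3, at 358 against 1160 CPM, Mmp3, at 483 against 2278 CPM, and Tnfrsf11b, at 8.93 against 87.8 CPM, were lower also within the finer cluster.

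Outside the Saa3-led cluster, the other 39 cycling cells of day 5 were set against the other cells of those clusters. Of 8530 measured genes 27.2% were at least 1.5-fold higher and 16.5% at least 1.5-fold lower, with a median of 0.16, and of 74 inflammatory genes 20 were higher and 30 lower. Complement genes were again mostly lower (8 of 10, median -1.58). Cxcl5, at 154 against 16.2 CPM (9.49, 8.13 to 11), and Ccl2, at 187 against 43.3 CPM (4.32, 3.77 to 4.93), were higher. Saa3 was higher here, at 213 against 73.1 CPM (2.92, 2.57 to 3.30), and lower inside its cluster. Of the 1020 Saa3 UMIs of all cycling cells of day 5, 754 lay inside that cluster, and the spread of the others over the 39 cells is not given here. All 6 endothelial and 5 of 6 osteoblast genes were higher and all 7 tenocyte genes lower. Of the 39 cells, 13 lay in the endothelial-like and 11 in the osteoblast-like cluster. The comparison cells have another mix of clusters. Its part in the ratios of these markers, Saa3, Cxcl5, Ccl2 and the complement genes was not tested. Of the activated fibroblast list 7 of 11 were higher and none lower, and of the glycolysis and hypoxia list 10 of 16 were higher and 2 lower.

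**Figure D3:**
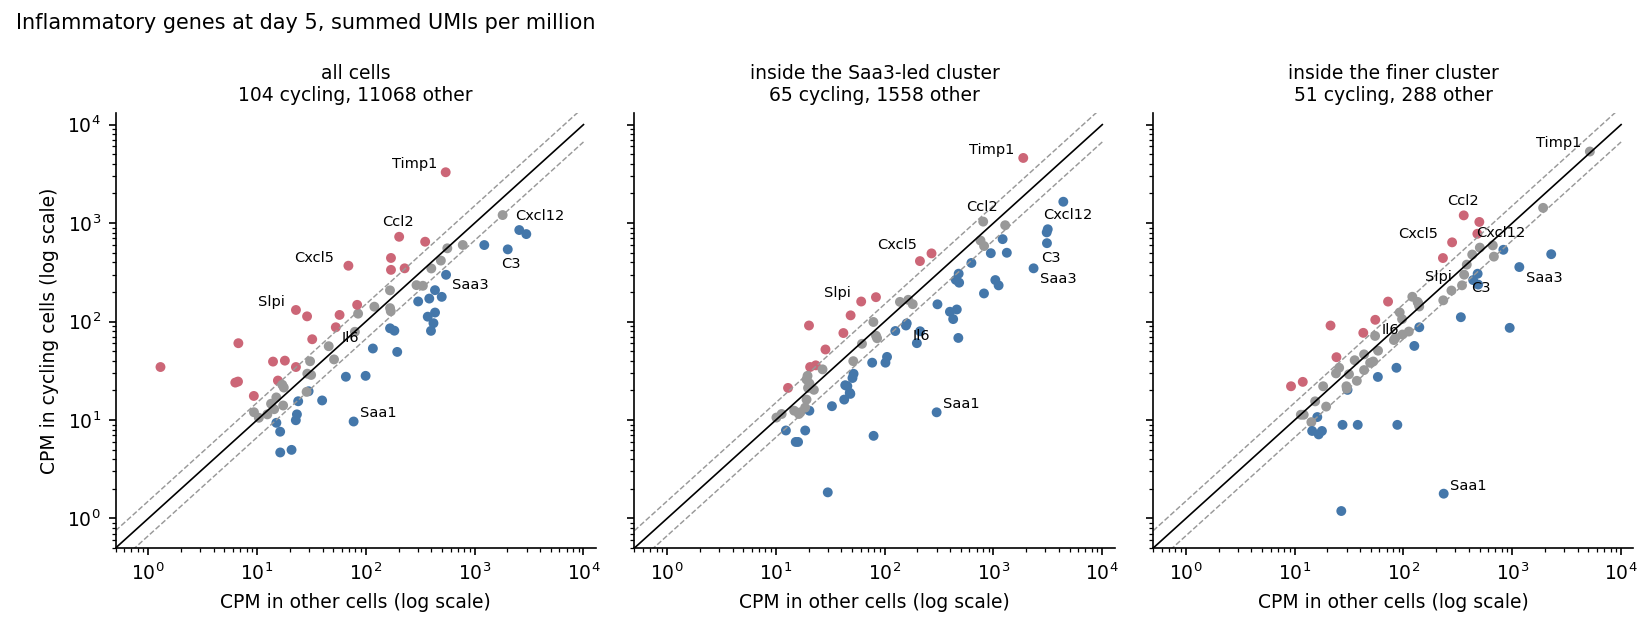
Each point is a measured gene of the 7 inflammatory lists at day 5, with CPM in other cells (x axis, log scale) and CPM in cycling cells (y axis, log scale), for all cells, the Saa3-led cluster and the finer cluster, and dashed lines mark 1.5-fold. Most points of the middle panel lie below the diagonal (44 lower, 12 higher), and in the right panel they lie closer to it (22 lower, 12 higher).

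Activated fibroblast genes were higher at day 5. Of the activated fibroblast list 9 of 11 genes were higher and 1 lower at day 5 (median 1.57), and inside the Saa3-led cluster 9 of 12 were higher and 1 lower (1.78). Tagln and Acta2, contractile genes of myofibroblasts and mural cells, had the highest ratios, 25.1 (22.0 to 28.7) and 14 (13 to 15), but 906 of the 1142 Acta2 UMIs and 351 of the 396 Tagln UMIs lay outside the Saa3-led cluster, where 2 mural-like cells also lie. Cthrc1, a collagen-triple-helix protein of activated fibroblasts, was at 288 against 23.0 CPM in all cells (12.5, 11.6 to 13.5), and inside the Saa3-led cluster at 367 against 59.9 CPM (6.13, 5.62 to 6.69), with a UMI in 83.1% against 17.0% of cells and in 62.5% against 8.56% after thinning. Fap, a surface protease, was the exception at 55.3 against 85.7 CPM (0.645, 0.556 to 0.745). Against the finer cluster Cthrc1 was at 409 and 222 CPM (1.84, 1.67 to 2.04), and 5 of 12 genes of the list were higher and 3 lower.

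Of the extracellular matrix list 12 of 21 genes were higher and 3 lower at day 5, in the finer cluster 3 higher and 4 lower (median 0.03), and at day 0 5 higher and 6 lower. Tenascin C (Tnc) was at 281 against 44.1 CPM (6.36, 5.94 to 6.82) and thrombospondin 1 (Thbs1) at 216 against 55.0 CPM (3.93, 3.64 to 4.24), while Dcn was at 7126 against 29621 CPM (0.241, 0.238 to 0.244). Tnc was also higher inside the Saa3-led cluster, at 287 against 59.98 CPM, with a UMI in 75.4% against 16.2% of cells (51.6% and 9.59% after thinning). The collagen genes Col1a1 (2.67-fold, 7727 CPM) and Col3a1 (1.81-fold, 5188 CPM) were higher as well, and with weighted comparison cells stood at 2.16 and 1.44. Of a list of genes that mark different fibroblast states 18 of 24 were lower and 2 higher over all cells of day 5 (median -1.44), and in the finer cluster 4 of 10 were lower and 2 higher (median 0.06). Over all cells, Clic5 stood at 0.104, S100g at 0.111 and the imprinted RNA H19 at 5.74. The further lowest genes of day 5 were Cilp2 (0.0748), Chad (0.0829), Angptl7 (0.0850), Clu (0.114), Galnt15 (0.151), Abca8a (0.156), Tnmd (0.162), Myoc (0.163), Apod (0.175) and Ecm2 (0.176), with matrix and tendon genes (Cilp2, Chad, Tnmd, Ecm2) among them. Of the fibroblast surface list 3 of 10 were higher and 3 lower, the lower ones with Cd9 at 0.568 and Cd200 at 0.609. Among the higher ones endoglin (Eng) was at 3.42-fold (1.04 with weighted comparison cells), and 223 of its 275 UMIs lay outside the Saa3-led cluster.

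Glycolysis and hypoxia genes were higher together. At day 5, 12 of 17 were at least 1.5-fold higher and 1 lower (median 1.51), and inside the Saa3-led cluster the counts were the same (1.13). The lactate exporter Slc16a3 was at 92.7 against 7.84 CPM (11.8, 10.4 to 13.5) and Pgk1, a glycolytic kinase, at 448 against 87.6 CPM (5.12, 4.85 to 5.4), while hexokinase 2 (Hk2) was at 79.3 against 122 CPM (0.648, 0.572 to 0.731). Inside the Saa3-led cluster Slc16a3 was at 131 against 27.5 CPM, with a UMI in 39 of 65 against 9.69% of cells (34.4% and 6.51% after thinning), and Pgk1 at 573 against 185 CPM. Against the finer cluster, which Slc16a3 helps to lead, the median was 0.14, with 3 of 17 higher and 3 lower, Slc16a3 at 162 and 147 CPM and Pgk1 at 664 and 475 CPM (1.40, 1.30 to 1.51).

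Genes that are induced by tissue dissociation were lower: 16 of 20 at day 5 and 1 higher (median -1.09), with Btg2 at 0.334 (0.312 to 0.357), Hspa1b at 0.336 (0.283 to 0.395), Fos at 1688 against 4153 CPM, and Hsp90aa1, a chaperone, at 2.29-fold (2.20 to 2.38). Inside the Saa3-led cluster 15 of 20 were lower (-0.88), and in the finer cluster 4 of 20 (-0.30). These genes respond to digestion and handling as well as to signals in the tissue, and their part in the other differences was not tested.

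Genes that control entry into the cycle differed in both directions. The G1 cyclin Ccnd1 was at 85.1 against 23.5 CPM (3.62, 3.19 to 4.08) and its partner Cdk6 at 24.6 against 7.00 CPM (3.51, 2.77 to 4.40). The inhibitors Cdkn1a and Cdkn1c were at 76.9 against 255 CPM (0.301, 0.266 to 0.34) and 66.1 against 187 CPM (0.354). On the whole list 5 of 14 genes were higher and 6 lower. The higher ones also hold the inhibitor Cdkn2c (1.90, 1.5 to 2.37), and the lower ones the cyclin Ccnd2 (0.625) and Myc (0.600), all 3 named after their values were seen. Cdkn1a was lower also inside the Saa3-led cluster (0.336, 0.276 to 0.404) and inside the finer cluster (0.185, 0.143 to 0.235). Of 17 mitogen receptor genes 2 were higher, with Tnfrsf12a, the TWEAK receptor, at 92.7 against 25.9 CPM (3.58, 3.18 to 4.02), and 5 lower, with Lifr at 0.556 and Igf1r at 0.581. Of 11 growth factor ligands 2 were higher, with Tgfb1 at 1.87-fold (1.20 with weighted comparison cells), and 4 lower, with Igf2 at 0.228 and Fgf2 at 0.471.

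**Figure D4:**
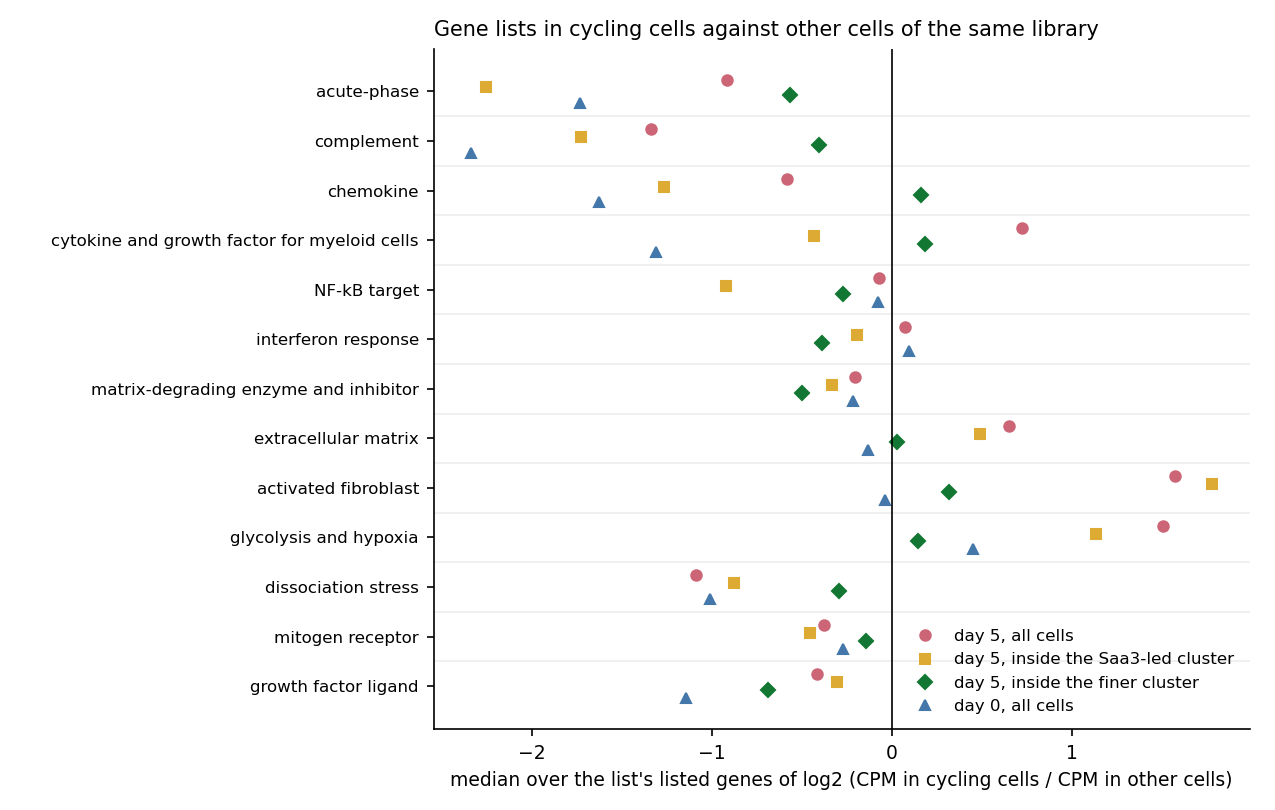
Median log2 ratio of CPM in cycling cells to CPM in other cells (x axis) for 13 gene lists (rows), for all cells of day 5, the Saa3-led cluster, the finer cluster and day 0. Acute-phase and complement lists lie left of 0 in all 4 comparisons (down to -2.34 for complement at day 0), activated fibroblast and glycolysis lists lie right of 1 in the first 2, and the finer cluster's medians lie closest to 0 for 8 of the 13 lists.

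Of the 13 cycling cells of the blood endothelial-like cluster, 12 carried endothelial RNA. The other cell (38624 UMIs) had none of the 6 endothelial markers and 3 of the 5 markers of muscle satellite cells, and lay in a skeletal muscle-like cluster at the finer setting. Summed over the 13 and over the other 82 cells, the levels of several markers were near each other. Pecam1 was at 698 against 755 CPM, the junction cadherin Cdh5 at 713 against 510 CPM and Egfl7 at 747 against 843 CPM, each with a UMI in 12 of the 13 cells. The VEGF receptors Kdr (285 and 479 CPM) and Flt1 (321 and 538 CPM) were lower. Ccnd1 had a UMI in 12 of 13 and was at 303 against 134 CPM. These 13 cells hold the Selp RNA of all cycling cells: 277 UMIs of this selectin, which captures rolling leukocytes, in 9 cells, of which 211 lay in 1 cell. Sele, the other endothelial selectin, had 163 UMIs in 7 cells, with 116 in 1 cell. Among the other 82 cells Selp had a UMI in 10 (112 CPM), and among the 120 of day 0 in 23 (153 CPM), so the ratio of Selp over all cells rests largely on 1 cell. Of the 13 cells, 11 also had at least 3 fibroblast markers, at a median depth of 34071 UMIs, and the share of this from free RNA or doublets was not tested. At the finer setting 12 of 75 cells (16.0%) of the endothelial-like cluster were cycling.

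The 11 cycling cells of the osteoblast-like cluster of day 5 carried RNA of bone matrix. Ibsp, bone sialoprotein, had a UMI in all 11, with a median cell of 23392 CPM against 3125 CPM in the other 684 cells. Col1a1 had a median cell of 20282 CPM against 2814 CPM, and Ifitm5, a membrane protein of osteoblasts, was at 734 against 260 CPM over the summed cells. Bglap, osteocalcin of mature osteoblasts, was lower in the median cell, at 113 against 1202 CPM, with 1 cell at 20832 CPM. Cthrc1 had a UMI in 10 of the 11 cycling cells and in 16.2% of the others (63.6% and 11.9% after thinning), and Tnc was at 734 against 463 CPM. At the finer setting 7 of 188 cells (3.72%, 1.51 to 7.52) of the cluster led by Bglap and Dmp1 were cycling and 4 of 485 (0.825%, 0.225 to 2.10) of the one led by Ostn and Mmp13.

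The cycling cells placed in the lining-like cluster held different levels of lining RNA at the 2 days. All 5 of day 0 had at least 3 of the 4 lining markers, and 2 of the 4 of day 5 did. At the finer setting no cycling cell of day 5 lay in the lining-like cluster. At day 0 the 5 cells held Prg4 at 23761 to 131336 CPM and 61788 CPM in sum, against 56598 CPM in the other lining-like cells. At day 5 the 4 cells held 9921 to 11906 CPM and 10816 CPM in sum, against 52427 CPM. These ranges of single cells do not overlap, but the cells are no replicates of a day, and the share of all genes that part in this way is not given here. Clic5, a lining marker, was at 534 against 1237 CPM at day 0 and at 18.5 against 872 CPM at day 5, and Htra4 at 871 against 3265 and at 55.4 against 2173 CPM. The cells of day 5 held Timp1 at 2678 against 910 CPM and Slpi in 3 of 4 cells. With 5 and 4 cells of 1 library each, and with Prg4 UMIs also in other cell types at day 5, this is a description of these cells.

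At day 0 the 10 cycling cells were 5 lining-like, 3 osteoblast-like, 1 fibroblast-like of the S100g-led cluster and 1 progenitor-like. The lining list stood at 34237 against 3483 CPM (9.83, 9.61 to 10.1) and the osteoblast list at 5663 against 1233 CPM (4.59, 4.35 to 4.85). Prg4 was 10.3-fold and Mmp13, a collagenase of bone and cartilage, 28.4-fold higher (26.6 to 30.4). The other cells of day 0 have another mix of clusters, and its part in the ratios of day 0 was not tested. Of 8302 measured genes 31.9% were higher and 20.0% lower, with a median of 0.23. Of 61 inflammatory genes 10 were higher and 32 lower: the complement list had 6 of 9 lower (median -2.34), with C4b at 8.76 against 433 CPM, and the acute-phase list 5 of 5 (-1.74). Apoe, the apolipoprotein of many sublining fibroblasts, had 2 UMIs (8.76 against 1245 CPM), and Cxcl14 had 4 (17.5 against 1227 CPM). Ccl2 had 23 UMIs, all in 1 cell. Cdk6 was at 131 against 6.26 CPM (21.0, 14 to 30.3) and Ccnd1 at 245 against 38.5 CPM (6.38, 4.81 to 8.30). The day 0 sums hold 228320 UMIs, and a gene at 0 in them, such as Il6 (32.5 CPM in the other cells), could stand at up to 13.1 CPM.

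Between the cycling cells of the 2 days, genes that mark the Saa3-led state were higher at day 5 and the 4 lining genes at day 0. The 6 osteoblast genes were split, with 3 at least 1.5-fold lower at day 5, Bglap among them, and 2 at least 1.5-fold higher. Mmp3 stood at 346 CPM at day 5 and 4.38 CPM (1 UMI) at day 0, Ptx3 at 347 and 8.76 CPM (2 UMIs) and Cxcl5 at 369 CPM and 0 UMIs. Of 8272 measured genes 20.9% were at least 1.5-fold higher and 24.3% at least 1.5-fold lower at day 5. The cell types that hold the cycling cells differ between the days, and so do the libraries, and these cannot be told apart from the time after serum.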

How the data were processed

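RNA of single cells was counted in 3 libraries, 1 per group, of which the 2 CD45-negative ones are compared here. The authors deposited UMI counts per gene and cell barcode, and the matrix headers name Cell Ranger 6.0.1. Per the labels' protocols, the reads had been aligned to the prebuilt 10x reference of mm10. The submitters' processing notes also name Seurat 4.3.0, whose role in these files is not given in the sources used here. Only barcodes called as cells were read, and ambient RNA was not removed.

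Cells were filtered and members chosen as stated at the opening. Both stromal libraries were clustered together with scanpy 1.11.5 on counts log-normalised to 10000 per cell, with 2000 variable genes less 62 division genes (correlation over 0.1 with the division lists), 30 principal components and 15 neighbours. Leiden clusters were drawn at resolution 1.0 and again at 2.0. A cluster was called X-like when at least 3 markers were detected (20 CPM and 10% of its cells) and 2 were among its 10 leading genes. This held only if no other list had as many. A cluster with fewer than 2 leading genes from any list was called fibroblast-like by default. It needed at least 3 detected fibroblast markers and cells that were not shallow. Fibroblast markers were detected in every main cluster, and the depth condition did not apply to the other names. This naming rule was tightened after the data were seen. Raw counts were summed over cycling and over other cells of a library and divided by their total (CPM). A ratio has an exact conditional binomial interval and a share a Clopper-Pearson interval, both at 95%, from scipy 1.17.1. Genes are measured at a mean of at least 10 CPM and 20 UMIs over both groups of cells, and 1.5-fold is a size, not a call. No p-value is given, since each group is 1 library. edgeR 4.0.16 and DESeq2 1.42.0 gave scaling factors for alternatives only. The scripts were tested on simulated data.

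The genes named are the 8 rule genes, for day 5 the 12 with the largest and the 12 with the smallest ratio among genes with at least 50 CPM in the higher group and 50 UMIs, outside the division lists, the 12 largest with no list left out, per list 2 genes on the side of its median and 1 on the opposite side, and the markers of cell types that hold members. The members and the 40 gene lists were chosen with earlier results of these data known. Of the list genes, 4 symbols on 2 rows or on none were left out. Promoters are from RefSeq (GRCm38.p6).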

Additional observations from a re-analysis of the deposited data

Results flagged for a closer look

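Among the genes named from the lists and markers, 10 lay at least 1.5-fold on one side of the other cells at day 5 and at least 1.5-fold on the other side at day 0. Over all measured genes, 24.3% were at least 1.5-fold higher and 14.9% lower at day 5, and 31.9% and 20.0% at day 0. The share of all genes on opposite sides is not given here, so the 10 are a list and not an excess. The difference between the days was not tested, since each day is 1 library, and the day 0 value rests on 10 cells, mostly lining-like and osteoblast-like. Higher at day 5 and lower at day 0 were Col3a1 (ratios 1.81 and 0.621), Eng (3.42 and 0.166, the latter from 1 UMI), Il6 (1.65 and 0, from 0 UMIs), Thy1 (1.65 and 0.177, from 4 UMIs) and the interferon gene Ifi27l2a (1.78 and 0.222, from 6 UMIs). With weighted comparison cells the day 5 ratios of Col3a1, Eng and Il6 were 1.44, 1.04 and 0.818, and those of Thy1 and Ifi27l2a 1.78 and 2.16. Lower at day 5 and higher at day 0 were the lining genes Clic5 (0.104 and 5.48) and Htra4 (0.188 and 2.69), the osteoblast gene Bglap (0.374 and 5.53), the surface protease Fap (0.645 and 2.73) and the cytokine receptor Lifr (0.556 and 1.58).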

How the results depend on the processing

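Over 19 alternatives, 790 values were recomputed, of which 451 stayed inside their interval or, for counts, within 1.5-fold, 323 moved further without turning and 16 turned. The day 5 share was 0.490% after thinning. At resolution 2.0 the cluster led by Saa3 held 11.5% of the cycling cells of day 5. Of the 65 cycling cells of the main Saa3-led cluster, 47 lay in the finer cluster described above, 12 in this cluster and the others elsewhere. With division genes kept in the clustering, where they set the clusters, the share was 1.92%. Of the counts at day 5, 9179 genes were higher and 3522 lower with no minimum, 1052 were higher with comparison cells weighted to the same clusters and 807 lower with comparison cells of like UMI totals, and of the inflammatory genes 13 and 11 were higher under these last choices. Under TMM scaling the split of higher to lower genes was 1407 to 1730 and under DESeq2 size factors 1486 to 1651, in place of 2043 to 1252, as log2 ratios shift by -0.17 and -0.15 (at day 0 by -0.26 and -0.24). Inside the Saa3-led cluster the higher genes were 780 under TMM, 806 under DESeq2, 2463 after thinning and 6271 with no minimum, in place of 1348, and the lower ones 1094 under TMM, 1440 after thinning and 2406 with no minimum, in place of 729. Of the inflammatory genes there, 21 were higher after thinning and 6 against cells of like UMI totals, and 22 were lower in the finer cluster. Ratios that turned at day 5 were Ptx3 (0.571 weighted, 0.456 at like totals), Ccl7 (0.784, 0.708), Il6 (0.818, 0.732) and Sod2 (0.607, 0.646), and Bcl3 was at 0.853 weighted. Ccl2 inside the Saa3-led cluster was at 0.983 without cells that hold leukocyte UMIs and at 0.894 at like totals. With the finer cluster in place of the Saa3-led one, Ptx3 (1.92), Ccl7 (2.06), Cxcl1 (1.63), Il6 (1.89), Pi16 (2.65) and Cxcl12 (1.12) turned to higher. The alternative with the finer cluster and that without endothelial-like and mural-like cells were chosen after seeing the data. For these changes the cause was not tested, except that the minimum adds genes with few UMIs. No paired analysis was possible because each group is 1 library. The day 0 values rest on 10 cells and 228320 UMIs.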
